A study of Mus musculus with 7 samples.

Results

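The cells described here are Gng13-high supporting cells of the mouse ovary on either side of birth, at E18.5 and P1. Supporting cells are the somatic cells that enclose germ cells, and before follicles form they are called pregranulosa cells. A cell was a member if it had at least 1000 detected genes and at least 3 UMIs (unique molecular identifiers, each standing for 1 captured RNA molecule) of Gng13. It also had at least 2 UMIs of Wnt6 plus Kitl, no UMI of Pax8, at most 1 of Upk3b and at most 2 of Dazl plus Ddx4. The members were therefore chosen by the measured values of these 7 genes, whose levels are given as a description. The rule found 1052 members, 679 at E18.5 and 373 at P1, among 10527 cells of the pair of libraries and 52542 cells of the whole series.

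Granulosa cells nourish the oocyte and hold it in arrest, and their precursors reach the ovary by more than one route. Medullary pregranulosa cells descend from bipotential supporting precursors and join follicles that grow soon after birth. Cortical pregranulosa cells come from the ovarian surface epithelium, over a time that overlaps with the first route, and enclose the oocytes of the resting primordial follicles. Lgr5, a receptor for R-spondins that raises Wnt signalling, is known as a marker of the cortical route, and Foxl2, a forkhead transcription factor, keeps granulosa cell identity. Around birth germ cell cysts break apart and primordial follicles assemble.

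Each age was 1 library of dissociated cells from wild-type, untreated C57BL/6J ovaries, captured with 10x v2 chemistry. Dissociation in trypsin took 1 h at E18.5 and 80 min at P1. Age, library and dissociation time cannot be told apart, the labels do not separate animals, and no test between ages was possible. The E18.5 library held 32566406 UMIs in 4118 cells and the P1 library 52076402 UMIs in 6409 cells. Levels below are CPM, the UMIs of a gene per 1000000 UMIs of the summed cells, and every 95% interval covers counting error only. The counts were 3' tags, so levels of different genes compare UMIs and need no division by length.

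At E18.5 the members were 20.0% (exact binomial 95% interval 18.6 to 21.4%) of the 3399 cells with at least 1000 genes. At P1 they were 7.46% (6.75 to 8.23%) of 4997 such cells. Of the supporting cells, those that met the rule whatever their Gng13 count, the members were 43.0% of 1579 at E18.5 and 24.6% of 1515 at P1. The share of members was thus lower at P1 on either denominator, and it stayed lower, at 4.56% against 16.6%, when every cell was first thinned to 4000 UMIs. With at most 10% mitochondrial UMIs it was 14.2% at E18.5 and 2.003% at P1. The rule uses a count, so depth and the level of Gng13 itself both set these shares. Members held a median of 7644 UMIs and 2722 genes at E18.5, and 8691 UMIs and 2910 genes at P1. Their UMIs ranged from 1786 to 65338 per cell at E18.5 and from 3458 to 28441 at P1.

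The comparison cells were supporting cells of the same libraries with no Gng13 UMI, 558 at E18.5 and 862 at P1. They held a median of 6796 UMIs at E18.5 and 7682 at P1. Mitochondrial genes took 9.36% of members' UMIs at E18.5 and 11.54% at P1, against 7.05% and 7.93% in Gng13-zero cells. Members therefore carried more mitochondrial RNA than Gng13-zero cells at both ages. With at most 10% mitochondrial UMIs per cell, 66 of 153 recomputed gene values left their interval and 1 more changed direction. That limit also left members as only 2.003% of cells at P1, and the part of mitochondrial RNA in these shifts was not tested. The libraries shared 35 cell barcodes, and 1 barcode belonged to a member in both. A doublet caller marked 53 cells at E18.5 and 159 at P1, of which 7 and 10 were members; these were kept.

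Gng13 encodes a G protein gamma subunit known from taste and olfactory cells, and the gene lies at chr17:25717171-25719406 (mm10). No Gng13 UMI was found in 35.3% of supporting cells at E18.5 and in 56.9% at P1. At the other end, 10 or more Gng13 UMIs were found in 25.2% of supporting cells at E18.5 and in 7.39% at P1. Among members the Gng13 count ran from 3 through a median of 12 to 66 at E18.5, and from 3 through a median of 7 to 43 at P1. The bulk of the high counts thus lay at E18.5, while both ages had a long tail.

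**Figure D1:**
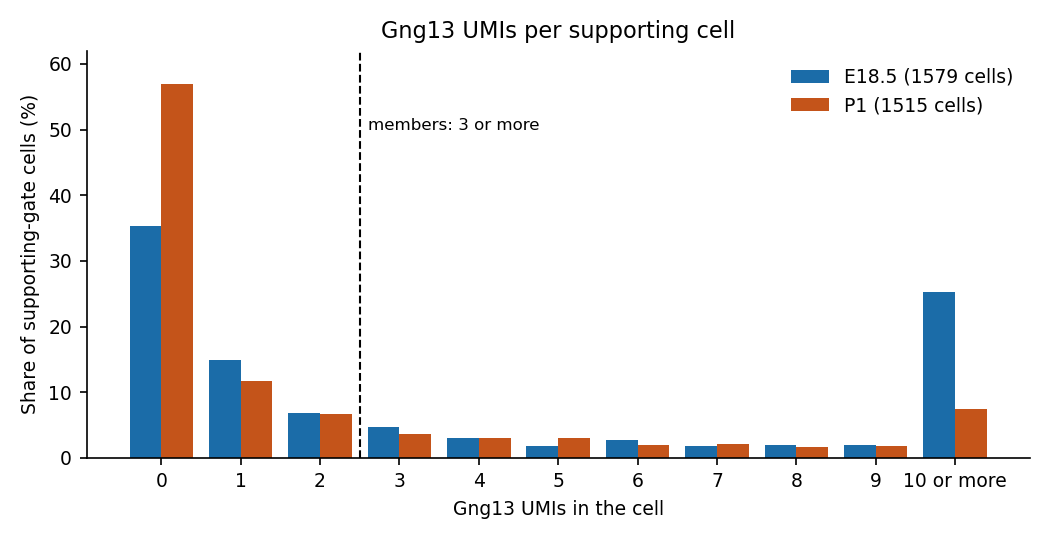
Share of supporting cells (vertical axis, percent of 1579 cells at E18.5 and 1515 at P1) by the number of Gng13 UMIs in the cell (horizontal axis). Cells with no Gng13 UMI make up 35.3% at E18.5 and 56.9% at P1, and cells with 10 or more make up 25.2% and 7.39%.

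Lgr5 and Foxl2 in the cells just inside and just outside the threshold lay between their levels in members and in Gng13-zero cells. At E18.5 the 74 cells with 3 Gng13 UMIs had 58.3 CPM of Lgr5 and 130 CPM of Foxl2, and the 107 cells with 2 had 32.2 and 173 CPM. At P1 the 54 cells with 3 had 89.3 CPM of Lgr5 and 216 CPM of Foxl2, and the 102 cells with 2 had 52.8 and 291 CPM. Lgr5 and Foxl2 thus ran in opposite directions across the threshold, in steps smaller than the distance between members and Gng13-zero cells.

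The remaining markers given for these cells stood above Gng13-zero cells at both ages. Lgr5, at chr10:115450311-115587780, was at 180 CPM (169 to 192) at E18.5 and 128 CPM (116 to 140) at P1. In Gng13-zero cells Lgr5 was at 13.1 CPM and 8.06 CPM, so members were 13.8-fold (10.5 to 18.3) and 15.9-fold (12.1 to 21.2) higher. Gpc3, a heparan sulfate proteoglycan of the cell surface, was at 176 CPM and 154 CPM in members, 3.49-fold and 2.59-fold above Gng13-zero cells. Hmcn1, an extracellular matrix protein, was at 120 CPM and 98.8 CPM, 2.62-fold higher at E18.5 and 1.57-fold at P1, and so past 2-fold at E18.5 alone. Gng13 was at 1940 CPM at E18.5 and 919 CPM at P1.

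The genes of the rule placed the members among supporting cells, as the rule requires. Wnt6, a secreted Wnt ligand, was at 518 CPM at E18.5 and 509 CPM at P1 in members, against 305 and 284 CPM in Gng13-zero cells. Kitl, the growth factor for the oocyte receptor Kit, was at 489 and 290 CPM in members, against 568 and 493 CPM. The germ cell genes Dazl and Ddx4 were at 15.7 and 1.68 CPM at E18.5, and at 5.57 and 0.880 CPM at P1. Upk3b, a marker of the surface epithelium, was at 6.73 and 4.69 CPM, and Pax8, a marker of the rete, was absent by the rule.

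Supporting-cell genes that the rule did not use were present. Amhr2, the receptor of anti-Müllerian hormone, was at 368 CPM at E18.5 and 371 CPM at P1, 1.70-fold and 1.57-fold above Gng13-zero cells. Rspo1, an R-spondin ligand, was at 135 and 133 CPM, 1.94-fold and 1.99-fold higher. Runx1, a transcription factor of early supporting cells, was at 153 and 120 CPM, against 130 and 119 CPM. Fst, the activin-binding follistatin, was at 686 and 598 CPM, against 709 and 543 CPM. Of 14 listed supporting markers, 11 passed the filter on level, of which Irx3 was past 2-fold higher and Foxl2 past 2-fold lower at both ages. Of all genes compared 1.91% were higher and 2.97% lower by this measure.

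RNA of other cell types' markers was also found in members, with erythroid and surface epithelium markers the higher sums. Of 10 mesenchyme markers, whose sum was 240 CPM at E18.5 and 289 CPM at P1, Col3a1 led at 102 and 67.5 CPM; mesenchymal-like cells of the same libraries summed to 6659 and 5910 CPM. The 8 endothelial markers summed to 45.3 and 33.1 CPM, with Tie1 at 0 at both ages and Egfl7 highest at 19.4 CPM at E18.5. The 9 immune markers summed to 14.4 CPM at E18.5 and 131 CPM at P1, led by Lyz2 at 4.68 and 50.2 CPM, and to 85.7 and 163 CPM in Gng13-zero cells. The 8 erythroid markers summed to 4083 and 9230 CPM, against 5623 and 13131 CPM in Gng13-zero cells. Immune and erythroid RNA was thus more abundant at P1 in both groups. Without Upk3b, which the rule used, 12 surface epithelium markers summed to 967 CPM at E18.5 and 1209 CPM at P1. That was above the 292 and 236 CPM of Gng13-zero cells and below the 3731 and 4290 CPM of Upk3b-positive surface cells. The part of these markers in the results below was not tested. The name cortical refers to a place in the ovary, which dissociated cells do not keep, so the members are called here by their Gng13 count.

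Genes were compared between members and Gng13-zero cells within each age where the pooled level was at least 20 CPM, which 6170 genes reached. A gene past 2-fold at both ages was counted as shared. By this measure 118 genes were higher in members, 1.91% of the genes compared, and 183 were lower, 2.97%. Without cells of at least 5 endothelial, immune or mesenchyme UMIs the lower count was 100, and 88 of the 183 were still past 2-fold. Counted at E18.5 alone, 2.61% of genes were higher and 3.74% lower, and at P1 alone 3.47% were higher and 4.83% lower. The ages come from different libraries and are not replicates of one another. A gene that passed the filter only through the cells where it is high had to differ, so these counts describe and do not test.

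The genes furthest above Gng13-zero cells at both ages, apart from Lgr5, were of many kinds. Gm17660, a predicted gene, was at 73.7 CPM at E18.5 and 73.3 CPM at P1, against 2.07 and 2.01 CPM, 35.6-fold and 36.4-fold higher. Svs5, a seminal vesicle secretory protein gene, was at 96.9 and 40.5 CPM, against 3.68 and 1.61 CPM. Mia, a small secreted protein known from cartilage, was at 94.4 and 50.7 CPM, against 5.97 and 2.01 CPM. All of these were thus close to 0 in supporting cells without Gng13. Mhrt, a long noncoding RNA of the Myh7 locus, was at 35.7 and 87.1 CPM, against 1.61 and 4.83 CPM. Gm17660, Mia and Mhrt each overlap another annotated gene, and how overlapping reads were assigned is not given in the sources used here.

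Other shared genes encode membrane or secreted proteins. Tgfbr3l, a relative of the TGF-beta co-receptor betaglycan, was at 96.9 CPM at E18.5 and 93.8 CPM at P1, 8.78-fold and 8.13-fold above Gng13-zero cells. Bace2, an aspartyl protease, was at 90.7 and 90.9 CPM, 8.06-fold and 5.69-fold higher. Both levels hardly moved between the ages. Egfl6, a secreted matrix protein with EGF repeats, was at 88.8 and 90.04 CPM, 5.77-fold and 7.21-fold higher. Apoc1, an apolipoprotein, was at 269 and 170 CPM, 5.44-fold and 5.08-fold higher. Serpini1, the protease inhibitor neuroserpin, was 6.58-fold and 6.50-fold higher, Clec2l, a C-type lectin, 10.5-fold and 8.99-fold, and U90926 12.52-fold and 9.95-fold. Rhox8, an X-linked homeobox gene, was 5.74-fold and 5.36-fold higher and was at 71.3 CPM at E18.5 and 129 CPM at P1.

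Keratins of simple epithelia were higher in members at both ages. Krt19 was at 123 CPM at E18.5 and 92.7 CPM at P1, 7.54-fold and 12.1-fold above Gng13-zero cells. Krt8 was at 184 CPM (173 to 196) and 350 CPM (330 to 370), 3.39-fold and 7.18-fold higher. Krt18, its partner in the filament, was at 282 and 473 CPM, 3.28-fold and 5.64-fold higher. Epcam, an epithelial adhesion protein, was 4.72-fold and 6.54-fold higher. Of 13 surface epithelium markers 5 passed the filter, with a median log2 ratio of 1.763 at E18.5 and 2.496 at P1. The median over all genes compared was −0.06 at E18.5 and −0.02 at P1. Of the 5, Krt19, Krt8, Krt18 and Lhx9 were higher at both ages, beside 1.91% of all genes compared. Not all markers of the list were present, as Msln had no UMI in members at E18.5 and Lhx2 none at P1. Lhx9, a LIM homeobox gene of the early gonad, was at 257 CPM and 128 CPM, against 66.2 and 28.6 CPM.

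Cystatins, inhibitors of cysteine proteases, and metallothioneins, which bind zinc and copper, held shared genes as well. Cst12 was at 422 CPM at E18.5 and 448 CPM at P1, 4.93-fold and 5.72-fold above Gng13-zero cells. Cst8 was at 202 and 326 CPM, 3.84-fold and 9.82-fold higher. Of 9 cystatins 4 passed the filter and 2 were higher at both ages, beside 1.91% of all genes compared. Mt1 was at 1519 and 1624 CPM, 2.99-fold and 3.30-fold higher, and Mt2 was at 309 and 338 CPM, against 108 and 59.5 CPM. Of 3 metallothioneins 2 were higher at both ages.

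Of the Wnt and of the TGF-beta family genes 3 each were past 2-fold at both ages, where 1.91% of all genes compared were higher and 2.97% lower. Of 32 Wnt genes 12 passed the filter; Lgr5 and Sp5 were higher at both ages and Sfrp1, a secreted Wnt inhibitor, was lower, and the median log2 ratio was 0.20 at E18.5 and 0.01 at P1. Sp5, a transcription factor known as a direct Wnt target, was at 67.0 CPM at E18.5 and 56.0 CPM at P1, 2.602-fold and 2.74-fold higher. Of 35 TGF-beta family genes 18 passed the filter; Bmp2 was higher at both ages and Tgfb2 and Smad1 were lower, and the median log2 ratio was −0.05 at E18.5 and −0.55 at P1. Bmp2, a bone morphogenetic protein, was at 176 and 72.7 CPM, 4.04-fold and 2.30-fold higher. Boc, a hedgehog co-receptor, was 2.65-fold and 3.01-fold higher. Among 13 genes of the insulin-like growth factor system that passed the filter, Igfbp2 was higher at both ages and Igfbp3, Igfbp5 and Igfbp7 were lower. Without cells of at least 5 endothelial, immune or mesenchyme UMIs the ratio was 1.02 and 0.987 for Igfbp7 and 0.567 and 0.505 for Igfbp5, so both were short of 2-fold. Igfbp2, which binds these growth factors, was at 147 CPM at E18.5 and 237 CPM at P1, against 30.8 and 96.0 CPM, and Igfbp5 was at 107 and 117 CPM, against 334 and 292 CPM. Of 21 matrix genes that passed the filter, Gpc3, Egfl6 and Adamts19 were higher at both ages and Hspg2, Col18a1 and Col3a1 were lower, with a median log2 ratio of −0.37 at E18.5 and −0.04 at P1.

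Genes of retinoid and steroid handling were also past 2-fold at both ages. Aldh1a1, which makes retinoic acid from retinal, was at 635 CPM at E18.5 and 888 CPM at P1, 2.17-fold and 2.35-fold above Gng13-zero cells. Fdxr, which passes electrons to mitochondrial steroid hydroxylases, was 2.94-fold and 4.23-fold higher. The 15 cholesterol synthesis genes that passed the filter had a median log2 ratio of 0.55 at E18.5 and 0.92 at P1. The median over all genes compared was −0.06 and −0.02. Of the 15, 1 was past 2-fold higher and 1 past 2-fold lower at both ages, beside 1.91% and 2.97% of all genes compared.

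**Figure D2:**
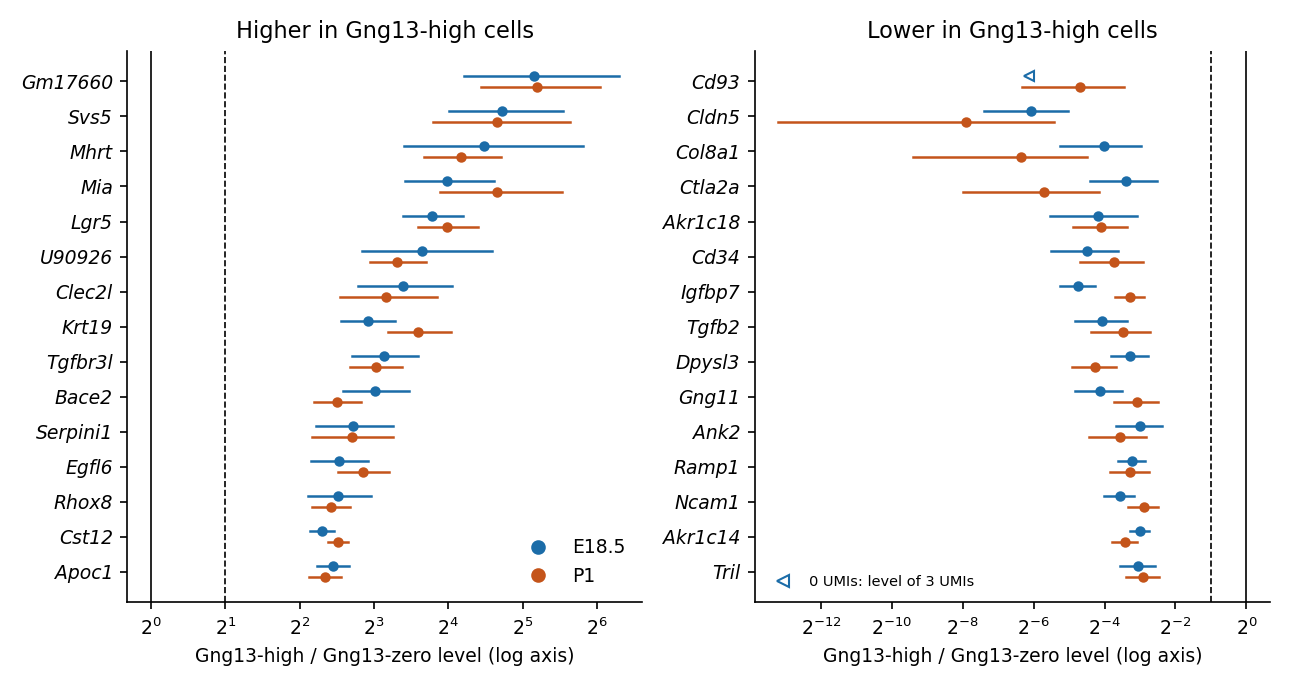
Ratio of the level in members to that in Gng13-zero supporting cells (horizontal log axis, with 95% counting intervals) at E18.5 and P1 for 15 genes higher and 15 lower at both ages. The dashed lines mark 2-fold, and a hollow triangle marks Cd93, which had no UMI in members at E18.5 and is drawn at the level of 3 UMIs.

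The promoters of Gng13, Sp5 and Cst8 are shown, chosen after their values and motifs were seen, because Gng13 defines the members and Sp5 and Cst8 stood above Gng13-zero cells at both ages and held motifs of Wnt and steroidogenic factors. The windows run from 250 bases before to 50 after an annotated start (RefSeq, GRCm38.p6), all on the + strand. Capitals mark matches, on either strand, to the letters CTTTGA of TCF/LEF factors, AGATAA of the GATA family, GTAAACA of forkhead factors or CAAGGTCA of nuclear receptor 5A factors. The Gng13 window at chr17:25716922-25717221 held none, nor did the window of its other start. The Sp5 window at chr2:70474673-70474972 held 2 TCF/LEF and 2 GATA matches, and the Cst8 window at chr2:148798589-148798888 held 1 nuclear receptor 5A match. No matches overlapped.
Gng13: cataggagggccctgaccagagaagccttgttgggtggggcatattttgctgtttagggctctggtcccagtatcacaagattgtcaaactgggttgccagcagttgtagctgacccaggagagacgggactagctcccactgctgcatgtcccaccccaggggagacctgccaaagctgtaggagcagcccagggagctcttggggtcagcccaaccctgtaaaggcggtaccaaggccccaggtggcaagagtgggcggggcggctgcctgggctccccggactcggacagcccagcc
Sp5: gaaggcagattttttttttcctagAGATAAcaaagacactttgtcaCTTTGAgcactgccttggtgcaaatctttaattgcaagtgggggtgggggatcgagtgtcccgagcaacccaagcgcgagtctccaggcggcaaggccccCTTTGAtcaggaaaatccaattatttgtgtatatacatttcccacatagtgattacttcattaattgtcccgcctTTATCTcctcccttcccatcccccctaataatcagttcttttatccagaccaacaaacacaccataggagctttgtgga
Cst8: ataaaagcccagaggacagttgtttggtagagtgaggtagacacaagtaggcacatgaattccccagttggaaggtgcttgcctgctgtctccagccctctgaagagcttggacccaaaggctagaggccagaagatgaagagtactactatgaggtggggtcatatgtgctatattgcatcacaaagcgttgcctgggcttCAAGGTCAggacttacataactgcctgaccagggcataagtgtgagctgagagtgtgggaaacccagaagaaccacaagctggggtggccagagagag

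A promoter was found for 90 of the 118 shared higher genes. CTTTGA was present in 16.7% of these, against 13.5% of the 4920 genes compared that had a promoter. AGATAA was present in 13.3% against 7.46%, and in 12.2% of the 131 shared lower genes with a promoter, and CAAGGTCA in 2.22% against 1.38%. No shared higher gene held GTAAACA, which 3.17% of the genes compared did. Over all 27025 genes with a promoter of this length, the shares were 18.2% for CTTTGA, 12.7% for AGATAA, 1.76% for CAAGGTCA and 4.05% for GTAAACA. A match is a description of letters in this window and not a site of binding.

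Medullary markers were lower in members than in Gng13-zero cells. Of 12 listed markers 8 passed the filter, 5 were lower at both ages, beside 2.97% of all genes compared, and none was higher, with a median log2 ratio of −1.33 at E18.5 and −1.85 at P1. Akr1c14, an aldo-keto reductase that acts on steroids, was at 24.3 CPM at E18.5 and 20.8 CPM at P1, against 195 and 224 CPM. Akr1cl was at 70.1 and 211 CPM, against 465 and 779 CPM. Aard was at 128 and 72.4 CPM, against 317 and 247 CPM. Akr1c18, which inactivates progesterone, was not on the list and was at 1.31 and 4.69 CPM, against 23.7 and 79.8 CPM. Its UMIs came from 21 of 558 Gng13-zero cells at E18.5 and 46 of 862 at P1, where Akr1c14 was found in 269 and 480, and 1 member held 10 of the 16 Akr1c18 UMIs of members at P1.

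Foxl2, at chr9:98955288-98958543, was lower in members and higher at P1 than at E18.5. It was at 58.9 CPM (52.6 to 65.8) at E18.5 and 164 CPM (151 to 178) at P1 in members, against 176 and 329 CPM in Gng13-zero cells. The ratio was 0.335 (0.293 to 0.383) at E18.5 and 0.499 (0.454 to 0.547) at P1, the latter just past 2-fold.

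Further genes below Gng13-zero cells were Tgfb2, Ramp1, Ncam1, Dpysl3, Tril, Ank2 and Col8a1. Tgfb2, a TGF-beta ligand, was at 3.37 CPM at E18.5 and 4.11 CPM at P1, against 56.3 and 45.9 CPM. Ramp1, which partners receptors of the calcitonin family, was at 12.53 and 8.80 CPM, against 117 and 85.0 CPM. Ncam1, a neural cell adhesion molecule, was at 9.35 and 14.7 CPM, against 112 and 109 CPM. Dpysl3, a cytoskeletal regulator of growing neurites, was at 6.73 and 6.75 CPM, against 65.5 and 129 CPM. All 4 were thus several times more abundant in Gng13-zero cells at both ages. Tril was at 7.67 and 12.3 CPM against 63.4 and 93.3 CPM, Ank2 at 4.68 and 4.40 against 37.4 and 52.4 CPM, and Col8a1 at 1.496 and 0.587 against 24.1 and 47.8 CPM.

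Genes of cell division were also less abundant in members. Of 30 such genes 22 passed the filter, 12 were lower at both ages, beside 2.97% of all genes compared, and none was higher, with a median log2 ratio of −1.41 at E18.5 and −1.03 at P1. Mki67, a marker of cycling cells, was at 5.24 CPM at E18.5 and 23.5 CPM at P1, against 19.1 and 55.1 CPM. Top2a, the topoisomerase of dividing cells, was at 7.11 and 18.48 CPM, against 42.5 and 87.7 CPM. Gng13-zero cells also held more mesenchyme RNA, 1574 and 1482 CPM over 10 markers against 240 and 289 CPM, and cell division genes summed to 5897 and 6956 CPM in mesenchymal-like cells against 1778 and 1840 CPM in members. Without cells of at least 5 endothelial, immune or mesenchyme UMIs the ratio was 0.349 (0.175 to 0.688) and 0.669 (0.470 to 0.941) for Mki67, and 0.216 and 0.255 for Top2a. Of 9 cell cycle inhibitors and related genes that passed the filter, none was past 2-fold in either direction.

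Some genes below Gng13-zero cells are known from endothelium and other cell types, and for these the values without cells that carried such RNA are given as well. Cldn5, a tight junction protein of endothelium, was at 1.31 CPM in members at E18.5 and 0.293 CPM at P1, against 88.5 and 70.0 CPM. In Gng13-zero cells its 385 UMIs at E18.5 came from 26 of 558 cells, and its 521 UMIs at P1 from 36 of 862. With every cell of at least 5 endothelial, immune or mesenchyme UMIs left out, Cldn5 in Gng13-zero cells was at 1.57 and 3.23 CPM. Cd93 had no UMI in members at E18.5 and was at 1.47 CPM at P1, against 39.3 and 38.0 CPM; with those cells left out Gng13-zero cells were at 1.04 and 2.54 CPM. Ctla2a was at 2.24 and 0.880 CPM against 23.7 and 46.3 CPM, and its ratio without those cells was 1.83 and 4.25.

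Igfbp7, Gng11 and Cd34 differed from one another in this respect. Igfbp7, a secreted protein of vessels, was at 6.92 and 15.3 CPM, against 184 and 149 CPM, and its ratio without those cells was 1.02 at E18.5 and 0.987 at P1. Gng11, another G protein gamma subunit, was at 4.11 and 7.33 CPM, against 72.1 and 61.9 CPM, with ratios of 0.340 and 0.654 without them. Cd34 was at 2.06 and 3.52 CPM, against 46.2 and 46.6 CPM, with ratios of 0.407 and 0.320. Without those cells the sums of Gng11 and Cd34 held 6 to 39 UMIs each, and the interval of the Cd34 ratio at E18.5 ran from 0.109 to 1.52. All 4 endothelial markers and all 9 mesenchyme markers that passed the filter were lower in members at both ages, beside 2.97% of all genes compared. These markers could pass the filter through the Gng13-zero cells, where their sums were higher, so the counts describe and do not test. Leaving out cells of at least 5 endothelial, immune or mesenchyme UMIs removed 52 of 679 members at E18.5 and 28 of 373 at P1. It removed 270 of 558 and 305 of 862 Gng13-zero cells. Of the 118 shared higher genes 89 were still past 2-fold at both ages, and of the 183 lower genes 88 were. Lgr5 was then 9.56-fold and 12.501-fold higher, and Akr1c14 0.106-fold and 0.0748-fold.

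From E18.5 to P1 more genes were lower than higher in members. Among 6067 genes with at least 20 CPM over the members of both ages, 211 were past 2-fold higher at P1, 3.48%, and 413 past 2-fold lower, 6.81%. With totals that left out mitochondrial, ribosomal protein and haemoglobin genes they were 349 and 481. The same genes in Gng13-zero cells were past 2-fold higher in 1.81% and lower in 5.62%, and in all other cells with at least 1000 genes in 1.53% and 4.12%. Fewer cells in a sum give a noisier ratio, so these shares do not rank the groups. The median log2 ratio of P1 over E18.5 was −0.03 in members, −0.07 in Gng13-zero cells and −0.18 in other cells.

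**Figure D3:**
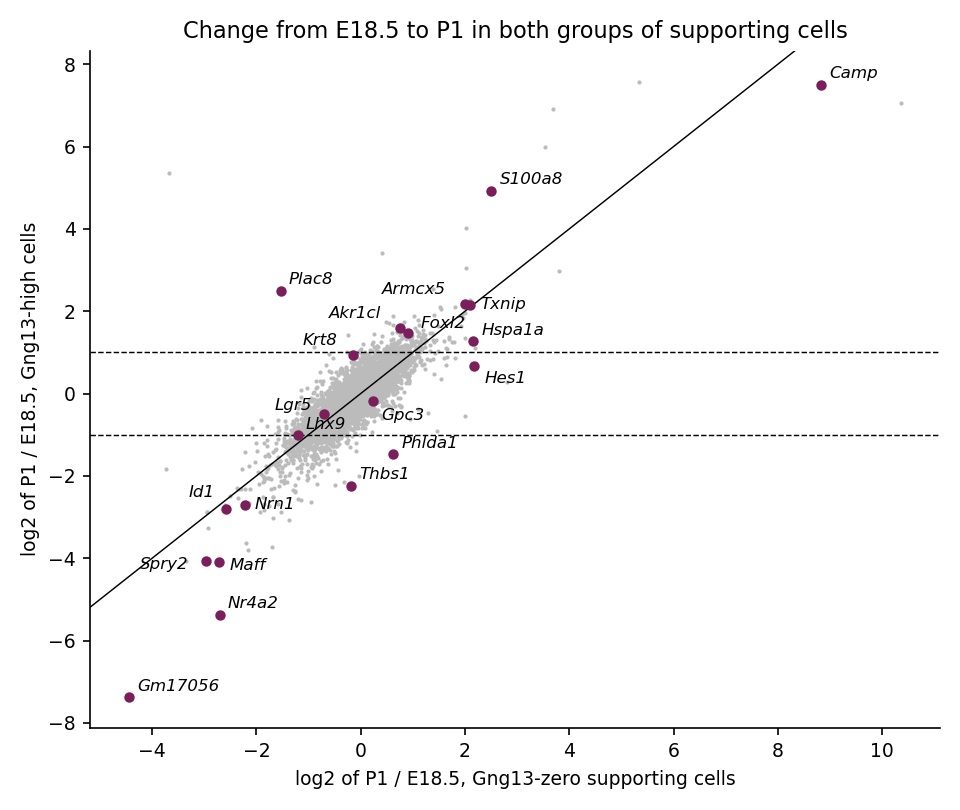
Log2 ratio of P1 over E18.5 in Gng13-zero supporting cells (horizontal axis) and in members (vertical axis), 1 point per gene compared. The solid diagonal marks an equal ratio, the dashed lines mark 2-fold, and genes with no UMI in a sum are left out; Camp and S100a8 lie far above 0 and Gm17056 and Nr4a2 far below.

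Genes known from neutrophil granules, such as Camp and S100a8, had the highest P1 to E18.5 ratios in members, and their ratios were high in Gng13-zero and other cells too. Camp, an antimicrobial peptide, was at 0.748 CPM (0.204 to 1.92) at E18.5 and 136 CPM (124 to 149) at P1 in members, and at 0.689 and 312 CPM in Gng13-zero cells. One member held 206 of the 464 Camp UMIs at P1, and 48.3% of members had at least 1. S100a8, a calcium-binding protein of neutrophils, was at 9.35 and 285 CPM, and 82.0% of members had a UMI of it at P1. S100a9, its partner, was at 4.86 and 309 CPM.

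After thinning to 4000 UMIs, S100a8 was found in 3.76% of members at E18.5 and in 49.5% at P1. It was found in 4.48% and 52.6% of Gng13-zero cells, in 5.05% and 47.3% of mesenchymal-like cells and in 2.96% and 47.0% of germ cells. Camp was found in 25.5% of members, 26.1% of Gng13-zero cells, 26.1% of mesenchymal-like cells and 25.3% of germ cells at P1. Germ cells, which should lack these transcripts, thus had them about as often as members did, so the shares are not read as expression by members. The source of this RNA was not tested. The mesenchymal-like set was mixed, with 844 CPM of immune markers at P1 against 131 CPM in members. The median depth was 6894.5 UMIs in mesenchymal-like cells and 23235 in germ cells at P1.

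In further genes with high P1 ratios 1 member held a large part of the UMIs. Prss34, a mast cell and basophil protease, was at 1.87 CPM at E18.5 and 76.3 CPM at P1, and 1 cell held 256 of its 260 UMIs. One cell also held 84.7% of the Plac8 UMIs, 56.7% of the Lyz2 UMIs and 54.4% of the Ngp UMIs of members at P1, while a UMI of Ngp was found in 154 of the 373 members. Stfa1 and BC100530, stefin A genes of a family of close copies whose reads may be split, were at 90.3 and 71.6 CPM at P1 and below 1 CPM at E18.5, with a UMI in 135 and 116 members at P1. Of the erythroid markers, Hbb-bs, a beta globin, was at 1814 CPM and 4488 CPM, 2.47-fold, against 2.73-fold in Gng13-zero cells and 6.58-fold in other cells. One member held 28% of its UMIs at E18.5 and one held 36% at P1.

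Ifit3 and Rtp4, both known as interferon-induced genes, were among the genes furthest above E18.5 at P1. Ifit3 was at 2.99 CPM at E18.5 and 48.7 CPM at P1, 16.3-fold, against 4.04-fold in Gng13-zero cells and 7.62-fold in other cells. Rtp4 was at 7.85 and 45.5 CPM, 5.79-fold, against 2.61-fold and 3.91-fold. Isg15, a ubiquitin-like modifier named after its values were seen, was at 44.9 and 136 CPM, 3.03-fold, against 2.07-fold and 5.78-fold. Isg15 was also above Gng13-zero cells at both ages, 3.76-fold and 5.51-fold.

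Genes with high P1 ratios that were spread over many members included Foxl2, Txnip and Armcx5. Foxl2 was 2.79-fold (2.42 to 3.21) higher at P1 in members, 1.87-fold in Gng13-zero cells and 1.43-fold in other cells. Txnip, an inhibitor of thioredoxin, was at 36.1 CPM at E18.5 and 160 CPM at P1, 4.44-fold, against 4.29-fold and 1.90-fold. Armcx5 was at 49.0 and 220 CPM, 4.49-fold, against 3.997-fold and 1.64-fold. In Txnip and Armcx5 the supporting cells with and without Gng13 thus had like ratios. Zfp459, a zinc finger gene, was 7.94-fold higher in members, and 14.03-fold (3.68 to 119) in Gng13-zero cells, where its level at E18.5 was 2 UMIs in 1 cell. Gsta3, a glutathione transferase, was 8.27-fold and 4.04-fold higher.

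Inha, the inhibin alpha subunit made by granulosa cells, was the 1 TGF-beta family gene of 17 compared that was past 2-fold higher. It was at 123 CPM at E18.5 and 268 CPM at P1, 2.18-fold, against 1.71-fold in Gng13-zero cells. Beside 3.48% of all genes compared that were higher and 6.81% that were lower, of 11 steroid synthesis genes 2 were higher, Akr1cl, 3.003-fold, and Scarb1, the receptor for high-density lipoprotein, 2.14-fold. Of 16 cholesterol synthesis genes compared, Msmo1 was past 2-fold higher, at 177 and 373 CPM, and Cyp51 past 2-fold lower, at 81.5 and 34.3 CPM. Cst9 was at 11.03 and 40.8 CPM, 3.69-fold, against 1.54-fold. Col18a1, a basement membrane collagen, was 2.73-fold higher against 1.19-fold, and Sdc1, a syndecan, was 2.21-fold higher against 1.25-fold. Krt8 was 1.90-fold higher and Krt18 1.68-fold, both short of 2-fold, against 0.899-fold and 0.975-fold in Gng13-zero cells. Hspa1a, an inducible heat shock protein, was 2.41-fold higher against 4.47-fold.

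Tef, Per3 and Dbp, known as genes of the circadian clock and its output, were named after their values were seen and were past 2-fold higher at P1 in members. Tef was at 15.9 CPM at E18.5 and 68.3 CPM at P1, 4.30-fold in members, 2.87-fold in Gng13-zero cells and 0.946-fold in other cells. Per3 was at 9.72 and 37.8 CPM, 3.89-fold, against 3.98-fold and 0.796-fold. Dbp was at 20.8 and 59.8 CPM, 2.88-fold, against 1.85-fold and 1.16-fold. The ratio was thus above 1 in supporting cells of both kinds.

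The genes furthest below E18.5 at P1 included several known to respond early to a stimulus. Nr4a2, an orphan nuclear receptor, was at 134 CPM (124 to 144) at E18.5 and 3.23 CPM (1.61 to 5.77) at P1 in members, and at 52.6 and 8.06 CPM in Gng13-zero cells. Egr3, a zinc finger factor, was at 109 and 6.45 CPM, and Maff, a small bZIP factor, at 159 and 9.38 CPM. All 3 were near 0 at P1. Csrnp1 was at 98.2 and 7.92 CPM, Fosl2, an AP-1 subunit, at 152 and 18.2 CPM, and Sgk1, a serum-induced kinase, at 45.1 and 3.23 CPM. Tnfrsf12a, the receptor of TWEAK, was at 206 and 21.4 CPM, and Gm17056, a predicted gene, at 97.2 and 0.587 CPM.

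The direction was not general to such genes. Of 25 immediate early and heat shock genes compared, 8 were past 2-fold lower, 2 higher and 15 neither, beside 6.81% lower and 3.48% higher over all genes, with a median log2 ratio of −0.40 in members and −0.48 in Gng13-zero cells. Fos, the best known of them, was at 1437 CPM at E18.5 and 1707 CPM at P1. Cyr61, a matricellular protein, was at 622 and 151 CPM in members, 0.243-fold, against 0.494-fold in Gng13-zero cells and 0.840-fold in other cells. Klf4 was at 0.308-fold in members, 0.309-fold in Gng13-zero cells and 0.300-fold in other cells.

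Spry2 and Dusp5, known as feedback inhibitors of receptor tyrosine kinase signals, were lower as well. Spry2 was at 191 CPM at E18.5 and 11.4 CPM at P1, 0.0600-fold, against 0.128-fold in Gng13-zero cells. Dusp5, a phosphatase that acts on ERK, was at 168 and 25.5 CPM. Thbs1, a thrombospondin, was at 184 and 39.0 CPM in members, 0.212-fold, and at 343 and 303 CPM in Gng13-zero cells.

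The Id genes, inhibitors of helix-loop-helix factors and known targets of BMP signals, were all past 2-fold lower in members. Id1 was at 339 CPM at E18.5 and 48.4 CPM at P1, 0.143-fold, against 0.167-fold in Gng13-zero cells. Id2 was at 674 and 131 CPM, 0.195-fold, against 0.417-fold. Id3 was at 522 and 88.9 CPM, 0.170-fold, against 0.432-fold, and Id4 at 85.5 and 6.45 CPM, 0.0755-fold, against 0.307-fold. Bmp2 was 0.412-fold, and Smad7, an inhibitor of these signals, was at 69.8 and 22.6 CPM. Of 17 TGF-beta family genes compared, these 6 were past 2-fold lower, beside 6.81% of all genes, and the median log2 ratio of the list was −0.43 in members, 0.02 in Gng13-zero cells and −0.25 in other cells.

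Wnt genes and glycolytic genes held further lower ratios. Wnt4, needed for ovarian differentiation, was at 211 CPM at E18.5 and 99.4 CPM at P1, 0.472-fold, against 0.360-fold in Gng13-zero cells. Lgr4, the relative of Lgr5, was at 108 and 52.2 CPM, and Tcf7l2, a transcription factor of the Wnt pathway, at 118 and 56.9 CPM. These were the 3 of 12 Wnt genes compared that were past 2-fold lower, beside 6.81% of all genes, and none was higher; Lgr5 was 0.710-fold (0.633 to 0.796). Of 15 hypoxia and glycolysis genes compared 9 were lower, beside the same 6.81%, and none higher, with a median log2 ratio of −1.20 in members, −0.91 in Gng13-zero cells and −1.17 in other cells. Tpi1 was at 523 and 210 CPM, Ldha at 541 and 242 CPM and Pfkl at 144 and 49.3 CPM. Cdkn1c, the cell cycle inhibitor p57, was at 1172 and 551 CPM, 0.470-fold, against 0.446-fold.

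Members of the same rule in the neighbouring libraries showed which of these values ran on with age. The rule found 2563 cells at E14.5, 1244 at E16.5 and 180 at P5. In age order from E14.5 to P5, Foxl2 was at 35.4, 121, 58.9, 164 and 233 CPM. Lgr5 was at 92.9, 250, 180, 128 and 127 CPM in the same order. Krt8 was at 125, 173, 184, 350 and 334 CPM, and Wnt4 at 334, 437, 211, 99.4 and 79.2 CPM. Krt8 was thus higher at each age up to P1, while for Foxl2 the E18.5 level lay below E16.5.

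Nr4a2, Spry2 and Maff, chosen for their lower level at P1, did not run on with age. Nr4a2 was at 63.2, 6.4, 134, 3.2 and 7.7 CPM in that order of ages. Spry2 was at 162, 7.8, 191, 11.4 and 10.6 CPM, and Maff at 93.2, 9.1, 159, 9.4 and 7.7 CPM. The 3 genes were thus high at E14.5 and E18.5 and low at E16.5, P1 and P5. Txnip ran the opposite way, at 18.3, 166, 36.1, 160 and 150 CPM. Gng13 itself was at 1726, 909, 1940, 919 and 915 CPM. Id1 was at 411, 478, 339, 48.4 and 69.1 CPM, and Camp at 0, 0.4, 0.7, 136 and 1.8 CPM. Dissociation took 40 min at both E14.5 and E16.5, and 80 min at both P1 and P5. Library and age are the same thing in this series, and the part of library handling in these values was not tested.

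**Figure D4:**
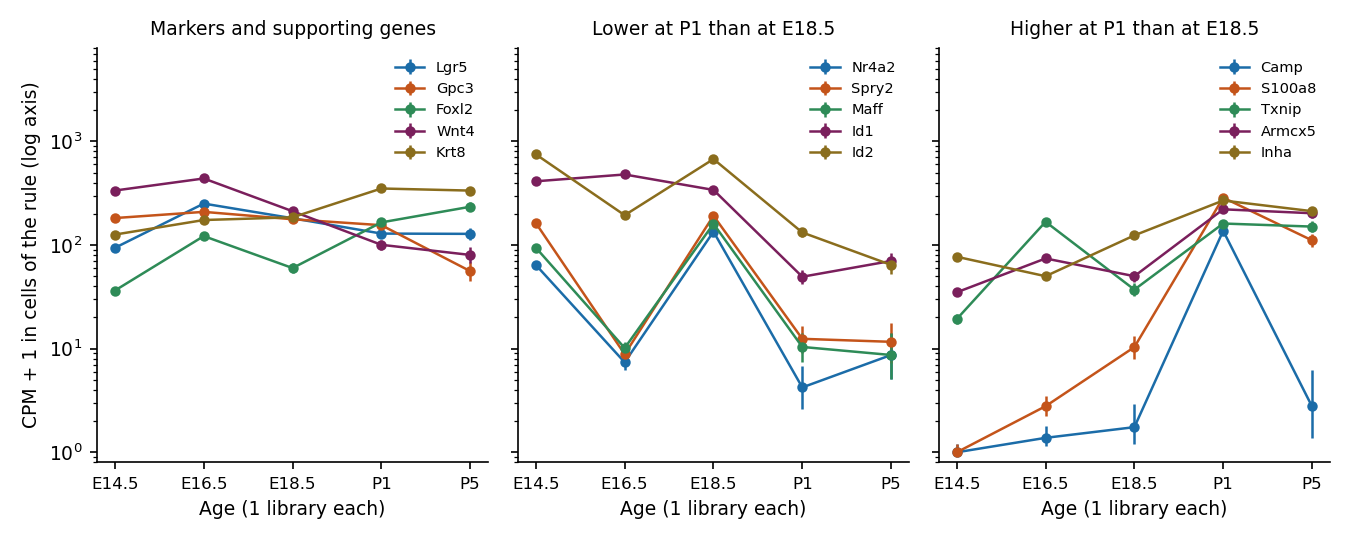
Level in members of the same rule at the 5 ages from E14.5 to P5 (horizontal axis), as CPM plus 1 on a log axis with 95% counting intervals, for 15 genes in 3 panels. Nr4a2, Spry2 and Maff are high at E14.5 and E18.5 only, and Camp is high at P1 only.

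The ratio of P1 to E18.5 was compared between members and Gng13-zero cells. Among 6152 genes with enough UMIs, 0.666% had a ratio at least 2-fold higher in members and 1.06% at least 2-fold lower; this difference was not tested. These 41 and 65 genes became 116 and 81 with at most 10% mitochondrial UMIs and 114 and 80 on thinned cells, so which direction held more genes depended on the setting. Eln, elastin, was at 27.3 CPM at E18.5 and 53.4 CPM at P1 in members, and at 53.1 and 34.6 CPM in Gng13-zero cells. Without cells of at least 5 endothelial, immune or mesenchyme UMIs, Eln was 5.52-fold higher in members at E18.5 and 6.23-fold at P1. Hes1, a Notch target, was at 506 and 806 CPM in members and at 221 and 999 CPM in Gng13-zero cells. Phlda1 was at 124 and 44.6 CPM in members and at 211 and 325 CPM in Gng13-zero cells. Thus members were above Gng13-zero cells for Hes1 at E18.5 and below them at P1. Fam13a was at 12.2 and 14.1 CPM in members and at 13.8 and 68.3 CPM in Gng13-zero cells.

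Members were not uniform in Lgr5 and Foxl2. After thinning to 4000 UMIs, which left 638 members at E18.5 and 372 at P1, an Lgr5 UMI was found in 47.3% (43.4 to 51.3%) and 36.3% (31.4 to 41.4%). A Foxl2 UMI was found in 19.4% (16.4 to 22.7%) at E18.5 and 40.6% (35.6 to 45.8%) at P1. Both were found in 6.43% (4.65 to 8.62%) and 14.52% (11.1 to 18.51%), and neither in 39.7% and 37.6%. The Lgr5 share was thus lower and the Foxl2 share higher in the P1 library, and the intervals cover the counting of cells and not the spread between libraries. Thinned to 2000 UMIs the Lgr5 shares lay closer, at 27.6% and 24.7%, and the Foxl2 shares were 10.2% and 24.9%. In Gng13-zero cells the thinned shares were 3.46% and 2.84% for Lgr5, and 47.0% and 62.8% for Foxl2. Without thinning, Lgr5 was found in 63.8% and 56.3% of members, and Foxl2 in 28.9% and 60.1%.

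These shares were set beside those of germ cells, which should lack the genes, and of mesenchymal-like cells, which were a mixed set. The mesenchymal-like cells held 1041 CPM of germ cell markers at E18.5 and 1176 CPM at P1, against 74.6 and 70.4 CPM in members. Lgr5 was found in 1.53% of mesenchymal-like cells at E18.5 and 0.305% at P1, and in 2.96% and 1.01% of germ cells. Foxl2 was found in 3.77% and 2.53% of germ cells, but in 13.8% and 18.1% of mesenchymal-like cells. The Lgr5 share of members was thus far above that of either set at both ages. At E18.5 the Foxl2 share of members, 19.4% (16.4 to 22.7%), was above the 13.8% (11.2 to 16.6%) of mesenchymal-like cells, but these intervals overlapped. It was also above the share of germ cells. At P1 the Foxl2 share of members was above that of either set.

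**Figure D5:**
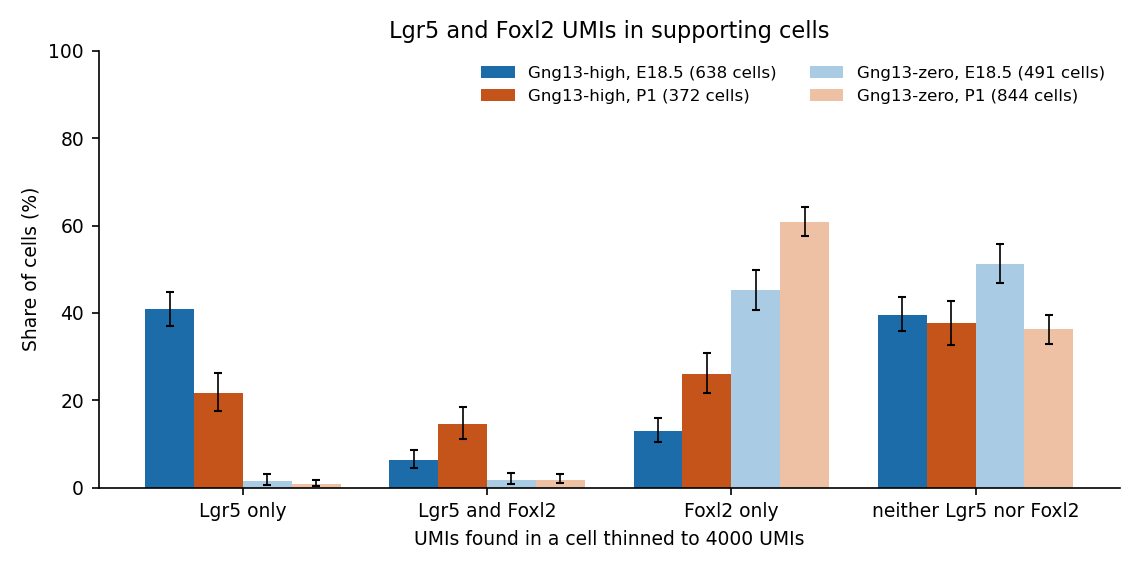
Share of members and of Gng13-zero supporting cells (vertical axis, percent, with exact binomial 95% intervals) at E18.5 and P1, each thinned to 4000 UMIs. Cells are split into those with a UMI of Lgr5 only, of both Lgr5 and Foxl2, of Foxl2 only and of neither. The totals that include cells with both genes are not drawn. Among members that total is 19.4% at E18.5 and 40.6% at P1 for Foxl2, and 47.3% and 36.3% for Lgr5.

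Members with a Foxl2 UMI differed from those without in other genes of the list. At E18.5 the 124 members with one had 127 CPM of Lgr5 and 173 CPM of Lhx9, and the 514 without had 203 and 276 CPM. Gpc3 was at 107 CPM with and 194 CPM without Foxl2 at E18.5, and at 96.0 and 204 CPM at P1. Aard, a medullary marker, was at 210 CPM with and 114 CPM without at E18.5. At P1 the 151 members with Foxl2 had 118 CPM of Lgr5, against 129 CPM in the 221 without, so Lgr5 was near level there. Akr1c14 was at 38.1 CPM with and 13.6 CPM without Foxl2 at P1, and Krt19 at 48.0 and 97.3 CPM. These cells share a library, and a cell with no UMI of a gene may still express it.

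Members with a Krt19 UMI had more Krt8 than members without. Lhx9, another surface epithelium marker, was at 298 CPM (259 to 341) against 240 CPM (218 to 263) at E18.5. At P1 Lhx9 was at 134 CPM (90.8 to 190) against 119 CPM (100.3 to 139). The Lhx9 intervals overlapped at both ages. At E18.5 the 178 members with one had 222 CPM of Krt8 and 15.4 CPM of Upk3b, and the 460 without had 164 and 4.3 CPM. At P1 the 58 members with one had 655 CPM of Krt8, against 278 CPM in the 314 without. When every cell with a Krt19 or Upk3b UMI was left out, the members were 12.1% of cells with at least 1000 genes at E18.5 and 5.50% at P1. Of the 118 shared higher genes 103 were still past 2-fold at both ages among the remaining cells.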

How the data were processed

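The authors made the libraries with 10x Genomics v2 chemistry and counted reads with Cell Ranger 3.1.0 on mm10; the submitters' processing notes also name Seurat. The deposited matrices hold UMI counts per gene and cell, as whole numbers that were not normalized, for called cells only. Gene positions came from GENCODE on GRCm38, and promoters from RefSeq (GRCm38.p6).

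Counts were summed over the cells of a group and given as CPM with exact Poisson intervals, ratios with the exact interval conditional on their total, differences of ratios with a Wald interval and shares with exact binomial (Clopper-Pearson) intervals. With 1 library per age there was no test and no p-value. Genes with at least 20 CPM were compared, and the fold was 2. Mesenchymal-like cells had no UMI of Wnt6 or Kitl and at least 1 of Col1a1, Col1a2 or Nr2f2. This set was mixed, as its sums of germ cell and immune markers show. Surface cells had at least 3 Upk3b UMIs, at least 1 of Krt19, no UMI of Pax8 and at most 2 of Dazl plus Ddx4. Doublets were called with Scrublet (scanpy 1.11.5, 30 components) and kept. Genes named were the rule's genes and markers, the 15 per direction whose interval bound nearest 1 was furthest from it (8 for the difference of ratios), and up to 4 per list; others are said to be named afterwards, or are shared or lower genes picked after their values were seen. Members and lists were chosen with earlier results of these data known. Some genes are not reported here. The calculation was checked on simulated counts. Python 3.11.15, numpy 2.4.6, scipy 1.17.1, pandas 2.3.3 and matplotlib 3.10.9 were used.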

Additional observations from a re-analysis of the deposited data

Results flagged for a closer look

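In 16 genes named by the rules the level moved one way from E18.5 to P1 in members and the other way in Gng13-zero supporting cells, with both counting intervals clear of 1. With 1 library per age, none of these differences was tested. The genes screened included 8 per direction that were named for the difference between the P1 to E18.5 ratios in these same data. That choice favoured opposite directions, and how many of all genes compared met the condition was not counted. The ratio of P1 to E18.5 in members was divided by that in Gng13-zero cells. Plac8 had a ratio of 5.66 in members and 0.345 in Gng13-zero cells, a quotient of 16.4, and 1 member held 84.7% of its UMIs at P1. In Gng13-zero cells 2 cells held 80 and 70 of its 188 UMIs at E18.5. Without the top cell of each sum the log2 ratio of Plac8 in members was −0.0223. The ratio in members was 0.869 (0.522 to 1.42) without cells that carried immune or endothelial RNA and 15.1 (8.74 to 28.2) without cells with Krt19 or Upk3b UMIs, so Plac8 depended on which cells were left out. Fabp5, a fatty acid binding protein, had 2.17 and 0.537, a quotient of 4.05, and 1 member held 32.8% of its UMIs at P1. The ratio of Fabp5 in members was 0.981 (0.646 to 1.48) without cells with Krt19 or Upk3b UMIs and 3.30 (2.36 to 4.67) without cells that carried immune or endothelial RNA. Eln had 1.95 and 0.653, a quotient of 2.99. Without cells that carried immune, endothelial or mesenchymal RNA, Eln had 1.94 in members and 1.72 (0.809 to 4.06) in Gng13-zero cells, the latter on 9 and 35 UMIs, and the directions were no longer opposite. Without cells that carried immune or endothelial RNA alone Eln had 1.97 and 0.626, and without cells with Krt19 or Upk3b UMIs 2.18 and 0.643. Selenop, a selenium carrier, had 1.81 and 0.689, a quotient of 2.63, and 1.88 and 0.870 (0.702 to 1.08) without cells that carried immune, endothelial or mesenchymal RNA. Cst8 had 1.61 and 0.630, a quotient of 2.56, and Mt2 had 1.09 and 0.551, a quotient of 1.98. Igfbp7 had 2.20 and 0.807, a quotient of 2.73, and without cells that carried immune, endothelial or mesenchymal RNA it had 1.41 and 1.46. Prss34 had 40.8 and 0.0779, a quotient of 523, with 256 of its 260 UMIs of members at P1 in 1 cell and 24 of its 30 UMIs of Gng13-zero cells at E18.5 in 1 cell. Another 8 genes were lower in members and higher in Gng13-zero cells. Pglyrp1, a peptidoglycan recognition protein, had 0.682 and 4.02, a quotient of 0.170. Phlda1 had 0.358 and 1.54, a quotient of 0.233. Rasd1, a Ras-like GTPase, had 0.530 and 2.75, a quotient of 0.193, and Serpine2, a protease inhibitor, had 0.658 and 2.68, a quotient of 0.245. Hsd3b1, an enzyme of steroid synthesis, had 0.654 and 1.93, a quotient of 0.338. Hmcn1 had 0.822 and 1.37, a quotient of 0.601, and Gpc3 had 0.876 and 1.18, a quotient of 0.742; without cells that carried immune, endothelial or mesenchymal RNA the values in Gng13-zero cells were 1.11 (0.8501 to 1.47) for Hmcn1 and 0.94997 (0.705 to 1.29) for Gpc3. Egfl7, a secreted protein of endothelium, had 0.483 and 1.43, a quotient of 0.338, and without cells that carried immune or endothelial RNA it was lower at P1 in both, at 0.499 and 0.528.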

How the results depend on the processing

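No paired analysis was possible because each age had 1 library. Of 148 recomputed shares and counts 97 stayed within their interval or within 1.5 times of the main count and 51 did not. Of 2343 recomputed gene values 1948 stayed within their interval, 373 left it and another 22 changed direction. The cause was not tested. A change of direction was counted only where the main interval lay clear of 1. On thinned cells 77 of 152 gene values left their interval and 3 changed direction. With at most 10% mitochondrial UMIs they were 66 and 1 of 153, and without endothelial, immune or mesenchyme cells 65 and 8 of 157. All 157 stayed with at least 1500 genes, with scaling by the median ratio and with totals without mitochondrial, ribosomal protein and haemoglobin genes. The share of members at E18.5 and P1 was 23.1% and 9.51% with at least 2 Gng13 UMIs, 16.4% and 5.46% with at least 5, 14.2% and 2.003% with at most 10% mitochondrial UMIs, 16.6% and 4.56% on thinned cells, and 12.1% and 5.50% without Krt19 or Upk3b cells. The counts below are, in order, shared genes higher and lower in members, genes higher and lower at P1 in members, and genes whose ratio was higher and lower in members than in Gng13-zero cells. They were 118, 183, 211, 413, 41 and 65 as reported. At 50 CPM they were 47, 72, 82, 228, 14 and 25. With no filter on level they were 639, 886, 1379, 1756, 297 and 180. At 1.5-fold they were 318, 364, 778, 1043, 289 and 248, and at 3-fold 41, 84, 35, 124, 6 and 18. With totals that left out mitochondrial, ribosomal protein and haemoglobin genes, 349 genes were higher at P1 and 67 had the higher ratio in members. The latter count was 116 with at most 10% mitochondrial UMIs and 114 on thinned cells. Thinned to 2000 UMIs, the shares of members at E18.5 and P1 were 27.6% and 24.7% for Lgr5, 10.2% and 24.9% for Foxl2, and 1.92% and 6.97% for both; without thinning they were 63.8% and 56.3%, 28.9% and 60.1%, and 15.9% and 33.2%.

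Some settings were chosen after seeing the data: leaving out cells with Krt19 or Upk3b UMIs, cells with at least 5 endothelial or immune UMIs or, in addition, mesenchyme UMIs, and the cell that held most of a gene's UMIs. Without endothelial, immune or mesenchyme cells 100 genes were lower at both ages. The log2 ratios counted as changed in direction, where the main interval lay clear of 0, were as follows. Against Gng13-zero cells, Fst at P1 was −0.0205 at 10% mitochondrial UMIs, −0.22 on thinned cells, −0.0233 with at least 3 Wnt6 plus Kitl UMIs and −0.11 without endothelial, immune or mesenchyme cells; Wnt4 at E18.5 was −0.17 on thinned cells. Without endothelial or immune cells Ctla2a was 1.16 at E18.5 and 0.31 at P1, and 0.87 and 2.09 without mesenchyme cells too, where Igfbp7 at E18.5 was 0.0266 and Id2 at P1 was 0.0242. From E18.5 to P1, Prss34 was −1.52 on thinned cells, −0.66 and −0.70 without those sets of cells and −0.52 without its top cell, and Plac8 was −0.20 without endothelial or immune cells and −0.0223 without its top cell. The difference of log2 ratios without those sets became −0.96 and −1.08 for Lyz2, −0.51 and −0.0684 for S100a9, and −0.0791 for S100a8 without endothelial or immune cells. Cd93 at E18.5 had no UMI in members and gave no ratio.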
